A study of Salmo salar with 16 samples.

Results

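The brain and the pituitary gland of Atlantic salmon were compared in 8 RNA-Seq libraries, 4 from each tissue, which were chosen by their tissue label out of 16 libraries in the series. The other libraries are from ovary and liver, and they entered the statistical fit, where they helped to set which genes passed the filter on low counts and the spread of each gene. Of the genes tested over all libraries, 33703 also passed the filter with the 8 libraries alone. The fish were untreated, sexually immature females of 3 years from a selective breeding program in Tasmania, and these conditions were shared by both tissues. The brain samples are titled brain, but their tissue label and the methods name the midbrain, a dissected region and not a whole brain. Genes of other brain regions differed between these libraries, as given in the last part, so the exact region that each library held is not known. The methods name 4 animals, while the labels do not state which libraries came from the same fish. The main fit took the libraries as independent, so its p-values ignore a pairing by fish if there was one. The p-values rest on 1 spread per gene, shared by the libraries of all 4 tissues, and not on the spread of the brain libraries alone. They cover 1 stock, sex and stage.

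The brain is built of neurons, which signal through transmitter receptors and ion channels, and of glia, which wrap axons in myelin and take up transmitter. The pituitary gland is an endocrine organ that lies beneath the hypothalamus. Its cells make peptide hormones in large amounts, cut them from precursors, store them in granules and release them when hypothalamic neurons signal through releasing and inhibiting factors. In teleost fish hypothalamic axons reach into the gland itself, so hormone cells and nerve endings lie close together. Both tissues secrete peptides from granules, and the comparison asks which functions and gene families separate them in each direction. Salmonid genomes keep many duplicated genes from an ancient doubling of the whole genome, so most families below have several copies.

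Total counts were between 23239082 and 51858156 in the brain, with brain replicate 2 the deepest, and between 24830666 and 28918488 in the pituitary gland. Levels are given as CPM, counts scaled to 1 common library size after the TMM correction, which adjusts library sizes for differences in composition. At these depths 3 counts, taken as the floor of detection, correspond on average to 0.0775 CPM per brain library and 0.111 CPM per pituitary gland library. The 10 genes with most counts took 40% to 43.5% of each pituitary gland library and 3.95% to 23.4% of each brain library. Spearman correlations between libraries over all tested genes were 0.981 to 0.986 within the pituitary gland, 0.878 to 0.945 within the brain and 0.737 to 0.786 between the tissues. The brain libraries thus differed from each other far more than the pituitary gland libraries did, and the values behind this are given in the last part.

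Of 37043 genes tested with edgeR, 5800 were called different between the tissues, which is 15.7% of those tested. A call needed 0.001 or less for the adjusted p together with a log2 fold change of 2 or more in size, and positive values mean a higher level in the brain. There were 3981 genes higher in the brain, 10.7% of those tested, and 1819 genes higher in the pituitary gland, 4.91% of those tested. The brain therefore held 68.6% of the calls. This split depends on the scaling, because plain library totals without TMM raised the median log2 fold change of all genes from 0.05 to 0.50 and gave 5474 genes higher in the brain and 1362 higher in the pituitary gland, with 80.1% of the calls in the brain. The median log2 fold change was 3.93 among genes called higher in the brain and -3.46 among genes called higher in the pituitary gland. A fit on the 8 libraries alone called 3864 genes in place of 5800, and 1395 with the replicate number as a block.

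The calls were spread differently over expression levels in each tissue. Genes called higher in the brain took 27.3% to 37.3% of the counts of a brain library and 1.2% to 1.4% of the counts of a pituitary gland library. Genes called higher in the pituitary gland took 48.3% to 51.6% of the counts of a pituitary gland library and 0.9% to 1.4% of those of a brain library. So the gland had fewer called genes but gave them a larger part of its counts. Most of that part came from 15 hormone genes, which took 40.2% to 43.1% of the counts of each gland library. Of the genes called higher in the brain, 3165 also had their highest mean in the brain among all 4 tissues, while 379 were highest in the ovary and 437 in the liver. For the pituitary gland the numbers were 1220, 359 and 240. All 4 brain libraries lay above all 4 pituitary gland libraries for 3903 of the 3981 genes called in that direction, and the reverse held for 1817 of 1819, against 23.9% of all tested genes in each direction. The calls were made on these same libraries, so this separation is no independent evidence for them.

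The genes were grouped into 46 lists of pathways, families and cell type markers by product name. More members were called higher in the brain in 27 lists and more in the pituitary gland in 14 lists. With plain library totals the numbers were 35 and 9. Over all tested genes 10.7% were called in the brain and 4.91% in the gland, so a list at these shares also counts toward the brain. Oxidative phosphorylation subunits count toward the brain with 4.48% and 1.49%, below both shares. The lists were chosen with earlier results of these data known, so these numbers of lists are no result about the tissues. The lists with the largest shares called in the brain were neurofilaments, myelin, transmitter transporters of vesicles, glycine and GABA-A receptors and glial proteins. Those with the largest shares called in the pituitary gland were the hormones themselves, the transcription factors of hormone cells, claudins, prohormone processing proteins and keratins. In bulk tissue a lower level can come from fewer cells of a type or from less RNA per cell, and these cannot be told apart here.

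**Figure D1:**
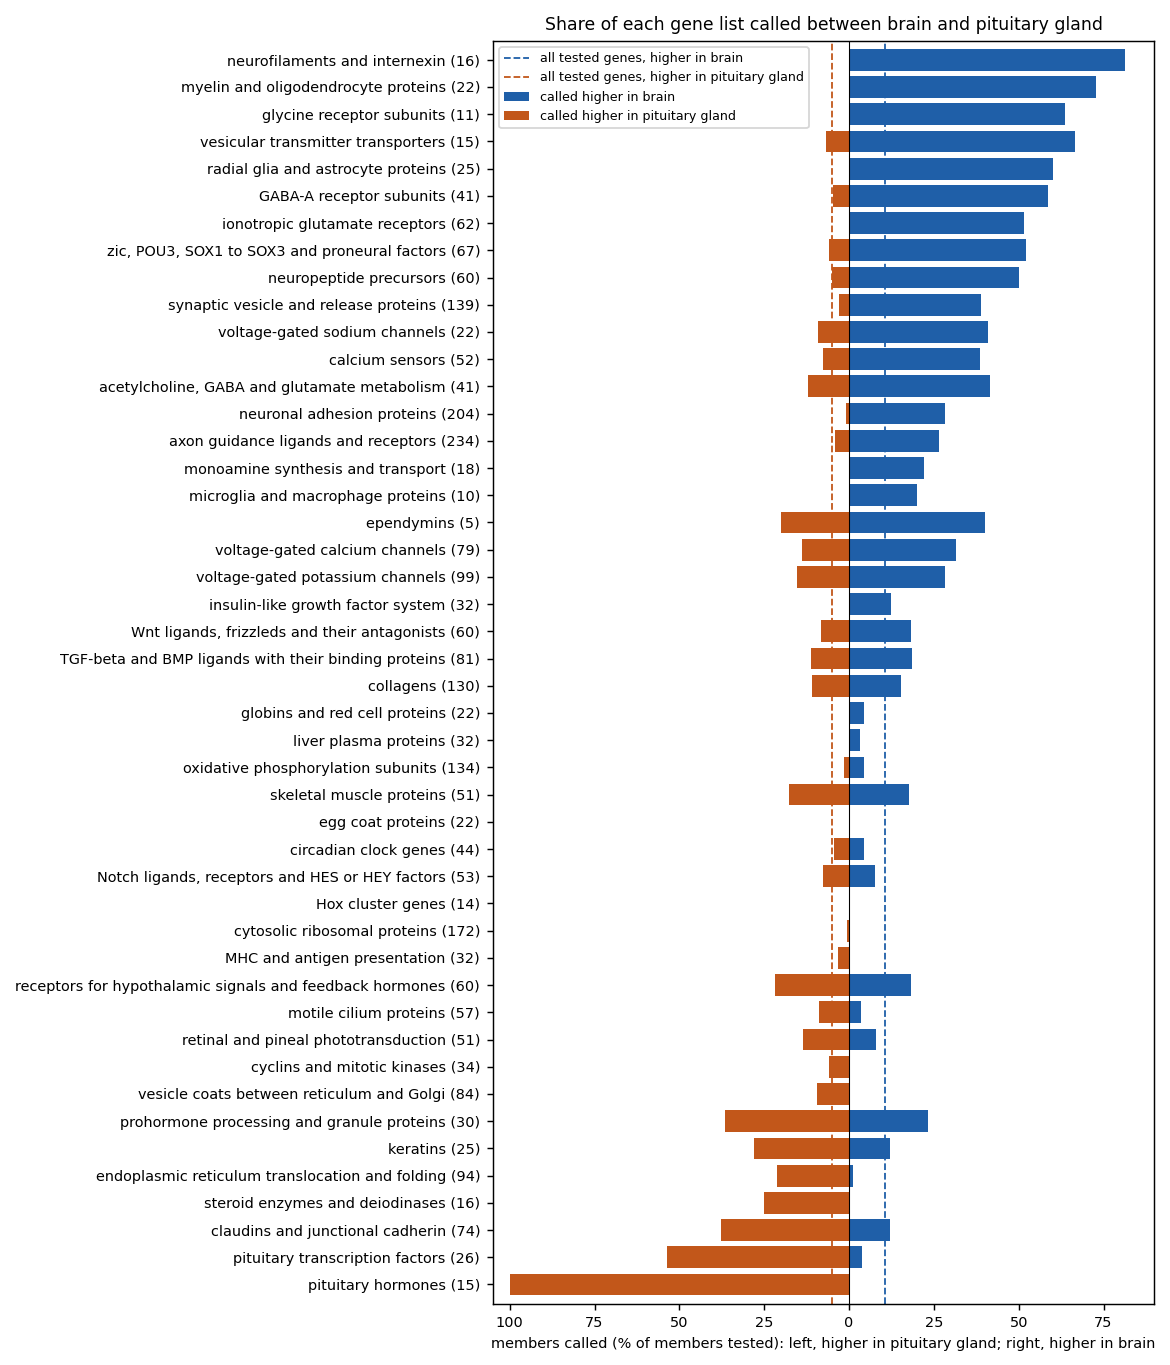
Share of the tested members of each gene list (number tested in parentheses) that was called higher in the brain, drawn to the right, or in the pituitary gland, drawn to the left, in percent. Dashed lines mark the shares over all tested genes, 10.7% and 4.91%, and the neuronal and glial lists extend beyond the brain line while the hormone list reaches 100% on the pituitary gland side.

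Receptors for fast transmitters were mostly higher in the brain. Of 62 tested ionotropic glutamate receptor genes, which encode the cation channels of excitatory synapses, 32 were called higher in the brain and 0 in the pituitary gland, with a median log2 fold change of 2.90. Without brain replicate 4, 3 genes of this list were called higher in the pituitary gland. The AMPA receptor subunit glutamate receptor 2-like (LOC106611560, chromosome 9, 54489026 to 54570157 in ICSASG_v2) had 151, 124, 57.6 and 181 CPM in brain replicates 1 to 4 and 2.88, 3.63, 3.53 and 3.31 CPM in the pituitary gland. Every brain library was above every gland library, and the log2 fold change was 5.26 ± 0.33 (SE), with an edgeR adjusted p of 9.1e-09. The obligatory NMDA receptor subunit NMDA 1 (LOC106563238) had 48.5, 62.2, 10 and 128 CPM against 0.22 to 0.705 CPM, so it stayed below 1 CPM in every gland library, and its log2 fold change of 7.04 was 6.41 without brain replicate 4.

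Inhibitory receptors followed the same direction with a pair of exceptions. Of 41 tested GABA-A receptor subunits, the chloride channels opened by GABA, 24 were called higher in the brain and 2 in the pituitary gland, with a median log2 fold change of 3.82. The alpha-1 subunit (LOC100380670) had 325, 358, 117 and 212 CPM in the brain and 1.92, 2.68, 2.52 and 2.57 CPM in the pituitary gland, a log2 fold change of 6.71 ± 0.39 (SE) with an edgeR adjusted p of 3.9e-09. Of 11 tested glycine receptor subunits 7 were called higher in the brain and 0 in the gland. The glycine receptor subunit gene glra1 had 4.94 to 47.3 CPM in the brain and 2.65 to 3.88 CPM in the gland, and without gland replicate 1 it was not called (edgeR adjusted p 0.00101). The beta subunit gene glrb was not called, with 28.2, 110, 12.4 and 55.2 CPM in the brain and 21.1 to 27.3 CPM in the pituitary gland, where the tissues overlapped (adjusted p 0.0385).

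Both GABA-A subunit genes called higher in the pituitary gland encode gamma-3 subunits, and each lies next to subunit genes called in the other direction. On chromosome 16 the gamma-3-like gene LOC106574424 (68209035 to 68251390) is followed by the alpha-5-like gene LOC106574423 (68253840 to 68288001) and the beta-3-like gene LOC106574421 (68259856 to 68313941). The gamma-3-like gene had 3.58, 1.41, 4.46 and 14.7 CPM in the brain and 45.6, 41.4, 39.1 and 50 CPM in the pituitary gland, so all gland libraries were higher. Its alpha-5-like neighbour had 4.97, 4.87, 1.77 and 11.7 CPM in the brain and 0 counts in every gland library, which makes the brain at least 52.3-fold higher against a floor of 3 counts per library. Its beta-3-like neighbour had 14.1, 141, 4.70 and 49.8 CPM in the brain and 0.0825 to 0.235 CPM in the gland.

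The duplicate cluster on chromosome 17 had the same arrangement and the same directions. There the gamma-3-like gene LOC106575271 (10116228 to 10164171) had 4.29, 1.30, 5.53 and 15 CPM in the brain against 35.9, 41.2, 26 and 46.6 CPM in the pituitary gland. The alpha-5-like gene LOC106575273 (10167498 to 10203019) had 3.34 to 21.8 CPM in the brain against 0 to 0.202 CPM. The beta-3-like gene LOC106575272 (10171262 to 10235743) had 12.1, 116, 4.25 and 49.1 CPM against 0.134 to 0.295 CPM. The log2 fold changes of the gamma-3-like genes were -2.88 ± 0.50 (SE, edgeR adjusted p 1.8e-04) on chromosome 16 and -2.53 ± 0.52 (SE, adjusted p 7.6e-04) on chromosome 17, and without brain replicate 4 they were -3.82 and -3.35. The call on chromosome 17 was not stable, since the edgeR adjusted p was 0.00119 to 0.00304 when brain replicate 1 or 3 or any 1 of the gland replicates was left out, and 0.00277 with plain library totals. In the fit on the 8 brain and gland libraries alone 0 GABA-A subunits were called higher in the gland. The number called higher in the brain fell there from 24 to 14, and to 4 with the replicate number as a block. Both gamma-3-like calls were thus lost there, also with the replicate number as a block. The log2 fold changes of the beta-3-like genes, 8.28 and 7.91, were 7.08 and 6.85 without brain replicate 2, and that of the alpha-5-like gene LOC106575273 was 5.65 in place of 6.42 without brain replicate 4. In each cluster the alpha-5-like and beta-3-like genes overlap in position on opposite strands but not in exons, and on chromosome 16 the uncharacterized gene LOC106574425, which was not called (0.01), lies within the gamma-3-like gene.

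Voltage-gated channels were divided between the tissues. Of 22 tested sodium channel genes 9 were called higher in the brain and 2 in the pituitary gland, and of 99 tested potassium channel genes 28 and 15. Of 79 tested calcium channel genes 25 were called higher in the brain and 11 in the gland, but with any 1 gland replicate left out these were 12 to 13 and 6 to 7, and without brain replicate 4 the gland number was 17. The medians were 0.54, 1.13 and 0.88 for sodium, potassium and calcium channels, and members went both ways, with 12 positive and 10 negative values for sodium and 59 and 40 for potassium channels. Shares called in the pituitary gland were 9.09%, 15.2% and 13.9%, above the 4.91% of all tested genes.

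Different members marked each tissue. The sodium channel type 8-like gene (LOC106583170), the Nav1.6 channel of axon initial segments and nodes in mammals, had 26.6 to 78.7 CPM in the brain and 0.605 to 0.701 CPM in the gland, with a log2 fold change of 6.32 ± 0.44 (SE) and an edgeR adjusted p of 2.2e-08. The potassium channel subunit beta-2 gene (LOC106565914) had 132, 120, 99.6 and 97.2 CPM against 3.21, 4.99, 5.24 and 3.67 CPM, so the brain libraries were close to each other. In the gland the L-type calcium channel alpha-1D-like gene (LOC106566685), whose mammalian counterpart opens at low voltage in endocrine and pacemaker cells, had 43.6 to 63.7 CPM against 0.443 to 8.07 CPM in the brain, and its log2 fold change of -3.81 was -4.53 without brain replicate 4. The N-type alpha-1B-like gene (LOC106579993) had 64.8 to 84.7 CPM in the gland against 5.78 to 14.2 CPM. The silent potassium channel subunits of the G and S subfamilies, which modify other channels, were higher there too, with 97.2 to 109 CPM against 7.48 to 19.5 CPM for the member G 3-like gene (LOC106576753) and 5.51 to 17.4 CPM against 0.083 to 0.207 CPM for the member S 2-like gene (LOC106582653). The L-type gene shares 33 exon bases with a gene on the other strand, and the strand setting of the counting is not given in the sources used here.

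The machinery of transmitter release was higher in the brain in 54 of 139 tested genes and higher in the pituitary gland in 4, with a median log2 fold change of 2. The gene sn25a, for the SNARE protein SNAP-25 that drives vesicle fusion, had 2366, 3320, 1137 and 943 CPM in the brain and 12.1, 11.6, 14.1 and 13 CPM in the pituitary gland. A second gene of this kind, LOC106580895, went the other way, with 0.148, 0.111, 0.473 and 0.457 CPM in the brain and 43.9, 42, 32.2 and 38 CPM in the gland. Their log2 fold changes were 7.26 ± 0.45 and -7.10 ± 0.44 (SE), each with an edgeR adjusted p of 7.0e-09, and no library of either tissue overlapped the other. Synaptotagmin-2-like (LOC106566022), a calcium sensor of fast release, had 88.4 to 357 CPM in the brain and 0.295 to 0.873 CPM in the gland.

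Transporters that load vesicles and enzymes that make transmitters named the transmitter types present in the dissected brain. Of 15 tested vesicular transporter genes 10 were called higher in the brain and 1 in the gland, with a median log2 fold change of 7.81. The vesicular glutamate transporter 2.1 gene (LOC106587477) had 104, 47.9, 33.1 and 52.1 CPM in the brain and 0 to 0.22 CPM in the gland. The vesicular inhibitory amino acid transporter (LOC106566112), which loads GABA and glycine, had 71.5, 33.9, 45.1 and 49.3 CPM against 0.111 to 0.504 CPM, and its log2 fold change of 7.64 was 8.30 without gland replicate 3. The gene gad1, for the enzyme that makes GABA from glutamate, had 23.7 to 55.1 CPM against 0.0367 to 0.206 CPM. These 3 genes were above 20 CPM in every brain library. Another vesicular glutamate transporter gene, slc17a6, was less even, with 50.6, 11.9, 25.2 and 184 CPM in the brain and 0 to 0.202 CPM in the gland, and its log2 fold change of 9.11 was 7.89 without brain replicate 4.

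Cholinergic and serotonergic genes were near 0 in some brain libraries. Choline acetyltransferase (LOC106609157), which makes acetylcholine, had 87.1, 66.9, 57 and 2.56 CPM in brain replicates 1 to 4 and 0.0367 to 0.124 CPM in the gland. The vesicular acetylcholine transporter-A gene (LOC106579437) had 40.7, 56.5 and 70.4 CPM in brain replicates 1 to 3 but 0.0305 CPM in replicate 4, below every gland library. Tryptophan hydroxylase 2-like (LOC106561539), the first enzyme of serotonin synthesis in neurons, had 27 and 31.5 CPM in brain replicates 1 and 3 and 0.526 and 0.274 CPM in replicates 2 and 4. Its call was lost when any 1 gland replicate was left out (edgeR adjusted p 0.00106 to 0.00213), and it shares 421 exon bases with a gene on the other strand.

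**Figure D2:**
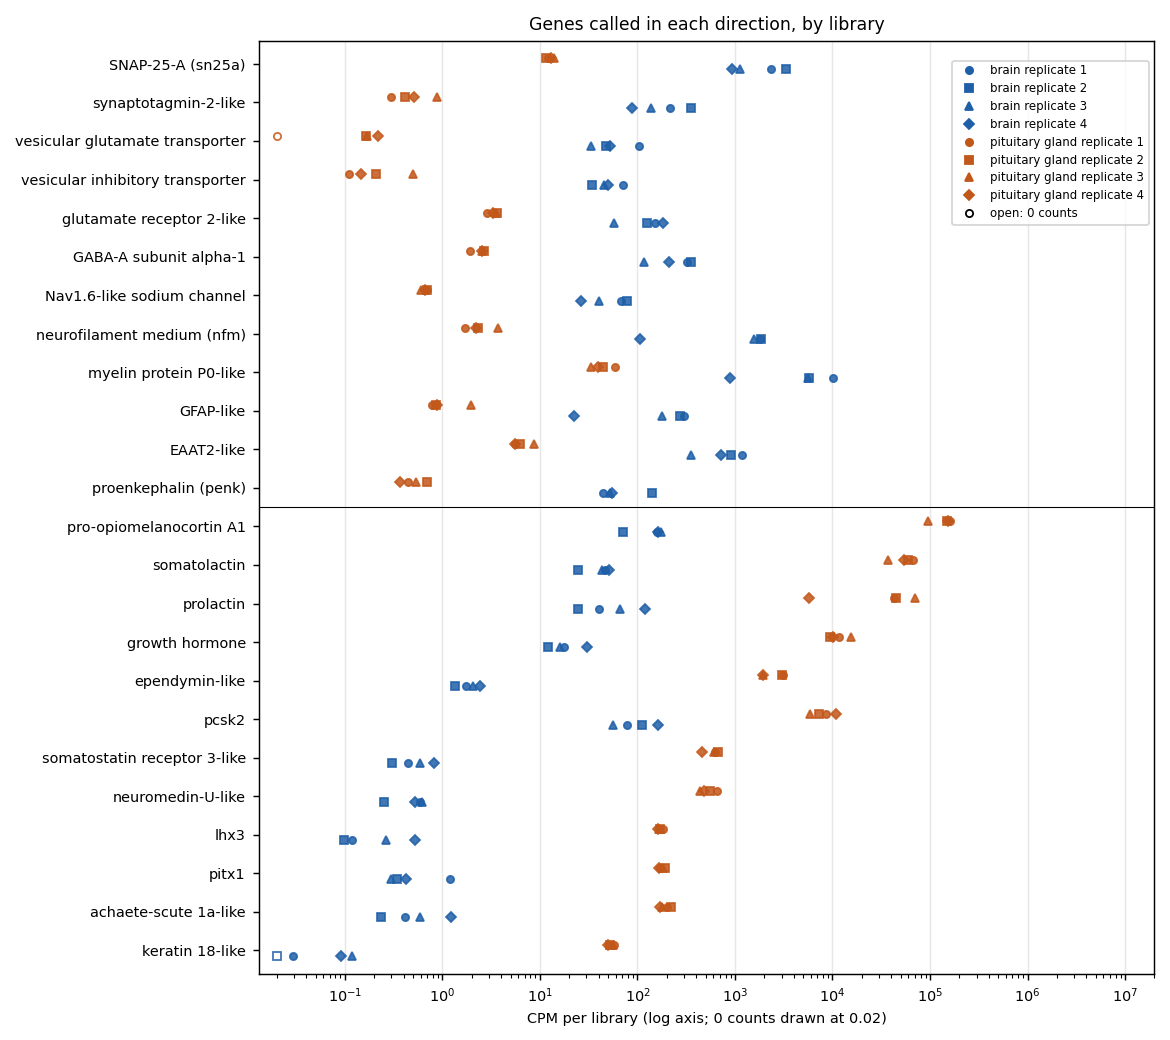
CPM of 24 genes in each brain and pituitary gland library on a log axis, with genes called higher in the brain above the line and genes called higher in the pituitary gland below it. The libraries of the 2 tissues do not overlap for any gene shown, and the spread is wider among brain libraries, with brain replicate 4 low for neurofilament medium (106 CPM) and myelin protein P0-like (881 CPM).

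Proteins of the axon and of its contacts were among the most one-sided. Of 16 tested neurofilament and internexin genes, which form the inner skeleton of axons, 13 were called higher in the brain and 0 in the gland, with a median log2 fold change of 7.19. The medium chain gene nfm had 1792, 1837, 1570 and 106 CPM in the brain and 1.70, 2.31, 3.70 and 2.20 CPM in the pituitary gland, a log2 fold change of 9.06 ± 0.75 (SE) with an edgeR adjusted p of 1.3e-07. The light chain gene nefl had 476, 493, 498 and 6.76 CPM against 0.514 to 1.24 CPM, so brain replicate 4 again stood far below the other brain libraries while remaining above the gland. Contactin-associated protein 1-like (LOC106607314), which lies beside the node of Ranvier, had 61 to 220 CPM against 0.332 to 0.514 CPM. Of 234 tested genes of axon guidance 62 were called higher in the brain and 10 in the gland, though plain library totals left 3 in the gland, and netrin-1-like (LOC106607062), a guidance cue, had 29.1 to 54.2 CPM against 0.134 to 0.221 CPM.

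Calcium sensors added to this group. Of 52 tested genes 20 were called higher in the brain and 4 in the pituitary gland, with a median log2 fold change of 2.33. Visinin-like protein 1 (LOC106603349), a neuronal calcium sensor, had 533, 707, 208 and 331 CPM in the brain and 0.845 to 1.28 CPM in the gland, with a log2 fold change of 8.76 ± 0.45 (SE) and an edgeR adjusted p of 1.2e-09. In the gland parvalbumin beta-like (LOC106606661), a calcium buffer best known from fish muscle, had 16.6 to 26.3 CPM against 0.0886 to 0.183 CPM in the brain.

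Myelin and glial genes were higher in the brain without exception among the calls. Of 22 tested myelin and oligodendrocyte genes 16 were called higher in the brain and 0 in the gland, with a median log2 fold change of 6.48. Myelin protein P0-like (LOC106600490), which in fish compacts central as well as peripheral myelin, had 10103, 5731, 5598 and 881 CPM in the brain and 59.3, 44.2, 33 and 39.2 CPM in the pituitary gland. Myelin basic protein-like (LOC106583543) had 9151, 3410, 4130 and 581 CPM against 22 to 39.1 CPM, and its log2 fold change of 7.28 was 6.61 without brain replicate 1. Together the tested myelin genes summed to 36238, 18378, 19149 and 3371 CPM in the brain replicates and to 328 to 439 CPM in the gland, so brain replicate 4 held the least.

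Glial genes of the radial and astrocyte type were called higher in the brain in 15 of 25 tested genes and in the gland in 0, with a median log2 fold change of 2.95. The intermediate filament gene of these cells, glial fibrillary acidic protein-like (LOC106601521), had 298, 275, 177 and 22.6 CPM in the brain and 0.774 to 1.95 CPM in the gland. Excitatory amino acid transporter 2-like (LOC106573351), which clears glutamate from synapses, had 1194, 916, 355 and 715 CPM against 5.53 to 8.63 CPM, a log2 fold change of 6.94 ± 0.37 (SE) with an edgeR adjusted p of 1.8e-09. The gap junction protein alpha-1-like gene (LOC106607775), the connexin that joins astrocytes in mammals, had 806 to 2496 CPM against 19.6 to 30.6 CPM. The gene s100b had 690 to 1912 CPM in the brain and 22.8 to 55 CPM in the gland.

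Transcription factors were called in both directions, and some families, such as LIM homeobox and proneural factors, had members on both sides. Of 539 tested genes with a product name of a developmental transcription factor family, 126 were called higher in the brain and 43 in the gland, which is a larger share of calls than over all genes in both directions. The list of zic, POU3, SOX1 to SOX3 and proneural factors, regulators of neural fate, had 35 of 67 tested members called higher in the brain and 4 in the gland, or 12 in the gland without brain replicate 2. Its summed level did not follow these counts, with 803, 2291, 613 and 674 CPM in brain replicates 1 to 4 and 760 to 895 CPM in the gland. Only brain replicate 2 was thus above the gland in this sum. Orthopedia B-like (LOC106563039), a homeobox factor of neuroendocrine hypothalamic neurons, had 24.3, 6.09, 20.7 and 66.6 CPM in the brain and 0.0367 to 0.269 CPM in the gland, and its log2 fold change of 8.02 was 7.23 without brain replicate 4 and 9.05 without gland replicate 3. The homeobox gene Nkx-6.2-like (LOC106605004), which acts in oligodendrocytes and ventral neural tissue, had 34.7, 24.8, 21 and 3.96 CPM against 0 to 0.111 CPM. Of 100 annotated Hox cluster genes, which pattern the hindbrain and spinal cord, 14 passed the filter on low counts and 0 were called (1 higher in the brain with plain library totals or without brain replicate 4), with the tested genes together at 0.235 to 0.68 CPM in the brain and 0.0367 to 0.184 CPM in the gland.

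The pituitary gland had its own set of factors. Of 26 tested genes on the list of pituitary transcription factors 14 were called higher in the gland and 1 in the brain, with a median log2 fold change of -3.25. The number called higher in the brain was 0 without gland replicate 1, 2 or 4, 2 without brain replicate 2 and 3 without brain replicate 4. The LIM homeobox gene lhx3 (chromosome 1, 125569562 to 125582470), needed for most hormone cell types in mammals, had 184, 171, 166 and 163 CPM in the gland and 0.118, 0.0968, 0.266 and 0.518 CPM in the brain, a log2 fold change of -9.52 ± 0.39 (SE) with an edgeR adjusted p of 2.1e-10. Its copy LOC106563263 had 63.1 to 71.2 CPM against 0 to 0.384 CPM. The homeobox gene pitx1 had 170, 193, 181 and 165 CPM against 0.295 to 1.21 CPM. Prop-1-like (LOC100192335), whose mammalian counterpart lies upstream of growth hormone, prolactin and thyrotropin cells, had 67.6 to 75.8 CPM against 0.444 to 1.30 CPM, and TBX19-like (LOC106575777), a T-box factor of POMC cells, had 31.6 to 51.4 CPM against 0.111 to 0.798 CPM. Leaving out brain replicate 4 moved the log2 fold change of lhx3 to -10.14, and leaving out brain replicate 3 moved that of TBX19-like from -7.20 to -8.24, where the brain level was near 0. Other shifts of this kind were -8.95 in place of -8.31 for pitx1 without brain replicate 1 and -10.26 in place of -9.05 for LOC106563263 without brain replicate 3.

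Factors that are known from neurons were also among those highest in the gland. The proneural factor achaete-scute homolog 1a-like (LOC106609474) had 199, 223, 180 and 171 CPM in the gland and 0.235 to 1.22 CPM in the brain, and its copy LOC106576285 had 143, 141, 128 and 111 CPM against 0.816 to 1.27 CPM. The log2 fold changes were -8.36 ± 0.41 and -7.0 ± 0.25 (SE), with edgeR adjusted p of 9.2e-10 and 7.9e-11. A neighbouring pair of homeobox genes on chromosome 7 behaved alike, with 27.6 to 44.7 CPM in the gland for HMX3-like (LOC106608660, 12290046 to 12293140) and 13.3 to 23 CPM for HMX1-like (LOC106608659, 12294343 to 12296757), and at most 0.236 and 0.0609 CPM in the brain. The secretory cell factor class A basic helix-loop-helix protein 15-like (LOC106589580), known in mammals as Mist1 of exocrine cells, had 83.2 to 145 CPM in the gland against 0.166 to 0.945 CPM in the brain. Log2 fold changes moved for HMX3-like from -8.86 to -9.90 without brain replicate 3, for HMX1-like from -8.71 to -8.08 without brain replicate 2 and for LOC106589580 from -7.94 to -8.55 without brain replicate 4.

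Peptide hormones took the largest part of the counts called in the gland. All 15 tested pituitary hormone genes were called higher in the gland, out of 19 annotated, against 4.91% of all tested genes. They took 43.1%, 40.9%, 40.2% and 41.2% of all counts in the gland libraries and 0.0688%, 0.0318%, 0.0622% and 0.0781% in the brain libraries. Pro-opiomelanocortin A1 (LOC100510783), the precursor of ACTH and melanocyte-stimulating hormone, had 161127, 149817, 94289 and 154098 CPM in the gland and 157, 71.6, 176 and 161 CPM in the brain. Somatolactin (LOC100136491), a fish hormone of the growth hormone family, had 66888, 58904, 37200 and 54487 CPM against 24.7 to 50.6 CPM. Growth hormone (LOC100136588) had 11591, 9419, 15475 and 10118 CPM against 12 to 30.7 CPM, with a log2 fold change of -9.25 ± 0.54 (SE) and an edgeR adjusted p of 3.7e-09.

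The hormones differed in how even they were among the 4 glands. Prolactin (LOC100136580), which acts in freshwater adaptation in fish, had 42936, 45144, 70338 and 5719 CPM, so gland replicate 4 was lowest. The thyrotropin subunit gene tshb had 5484, 4105, 12432 and 1805 CPM, and the gonadotropin subunit beta-2 gene gthb2, the luteinizing hormone subunit, had 174, 346, 313 and 66.3 CPM, both again lowest in gland replicate 4. Pro-opiomelanocortin A1 and somatolactin were instead lowest in gland replicate 3, which was the highest for prolactin, growth hormone and tshb. Without gland replicate 3 the log2 fold change of tshb was -8.36 in place of -9.0. The gene gthb2 shares 253 exon bases with a gene on the other strand.

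Hormone reads were also found in the brain, ovary and liver. The brain mean was 0.0721% to 0.305% of the gland mean for 14 of the 15 genes and 1.69% for the glycoprotein hormone alpha chain 1-like gene (LOC106610688). That gene had 11.9, 6.10, 6.62 and 1.71 CPM in the brain and 201 to 497 CPM in the gland. Pro-opiomelanocortin A1, proopiomelanocortin B (LOC100169856) and somatolactin were all lowest in brain replicate 2, at 71.6, 40.1 and 24.7 CPM. The means in ovary and liver were above the brain mean for several hormones, with 173 and 161 CPM against 141 CPM in the brain for pro-opiomelanocortin A1, 92.3 and 140 against 62.6 CPM for prolactin and 22.1 and 37.6 against 19.1 CPM for growth hormone. The gene LOC106610688 was higher in the brain, with 3.23 and 0.788 CPM in ovary and liver against 6.57 CPM. The source of these reads was not tested.

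Prohormone processing and granule proteins were called in both directions. Of 30 tested genes 11 were called higher in the gland and 7 in the brain, with a median log2 fold change of -0.38, which became 0.07 with plain library totals. In the gland pcsk2 (chromosome 18, 17303081 to 17389906), the convertase that cuts POMC to melanocyte-stimulating hormone, had 8634, 7220, 5879 and 10935 CPM against 77.6, 112, 56.3 and 162 CPM in the brain, a log2 fold change of -6.32 ± 0.64 (SE) with an edgeR adjusted p of 8.9e-07. Its chaperone gene 7b2 had 1305 to 1616 CPM against 72.4 to 147 CPM. Secretogranin III (scg3), which sorts hormones into granules, had 2590 to 5028 CPM against 29.4 to 54.8 CPM. Chromogranin A (chga) had 291 to 335 CPM against 66.2 to 109 CPM, and its log2 fold change of -2.02 lay at the threshold and was -1.56 with plain library totals, -1.97 with the DESeq2 test and -1.94 to -1.99 without brain replicate 1, 2 or 3, so that it was not called there.

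The brain had other members of the same pathway. The convertase 1-like gene LOC106583415 had 18.8, 5.85, 5.44 and 12.3 CPM in the brain and 0.369 to 1.44 CPM in the gland. The neurosecretory protein VGF-like gene (LOC106577895), a granule protein of neurons, had 30.4, 29.2, 10.8 and 26.8 CPM against 0.907 to 1.65 CPM, a log2 fold change of 4.24 ± 0.40 (SE) with an edgeR adjusted p of 4.4e-07.

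The early secretory pathway was higher in the gland by small amounts across many genes. Of 94 tested genes for translocation into and folding in the endoplasmic reticulum, 20 were called higher in the gland and 1 in the brain (0 without brain replicate 1 or gland replicate 2, 3 or 4), with a median log2 fold change of -1.19, and 82 of the 94 had a negative value. With plain library totals 13 were called in the gland and the median was -0.74. The signal peptidase gene spcs3 had 310, 256, 237 and 305 CPM in the gland and 20.6, 22.1, 25.9 and 29.7 CPM in the brain, a log2 fold change of -3.49 ± 0.14 (SE) with an edgeR adjusted p of 2.1e-10. Endoplasmin-like (LOC106561706), the HSP90 chaperone of the reticulum, had 693 to 1052 CPM against 141 to 209 CPM, and its log2 fold change of -2.27 became -1.82, below the threshold, with plain library totals.

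Vesicle coats and cargo receptors between the reticulum and the Golgi had 8 of 84 tested genes called higher in the gland and 0 in the brain, with a median log2 fold change of -0.82, or 4 and 1 with a median of -0.37 with plain library totals. The cargo receptor gene tmeda had 137 to 180 CPM in the gland and 12 to 21.8 CPM in the brain, and LOC106588119 of the same family had 216 to 320 CPM against 19.7 to 26.1 CPM. Of 172 tested cytosolic ribosomal protein genes 169 had a negative log2 fold change, with a median of -1.03 (-0.59 with plain library totals), but 1 was called. No member of this list was called with plain library totals or without brain replicate 2, brain replicate 3 or gland replicate 1, and 3 were called without brain replicate 4. The ribosomal gene rpl7a had 1163 to 1490 CPM in the gland and 429 to 756 CPM in the brain. Oxidative phosphorylation subunits had a positive value in 112 of 134 tested genes, with a small median of 0.57. Of these genes 6 were called in the brain (14 with plain library totals) and 2 in the gland (1 without gland replicate 1 or 4). These calls are 4.48% and 1.49% of the list, below the 10.7% and 4.91% of all tested genes.

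Receptors for hypothalamic signals and for feedback hormones were called in both tissues. Of 60 tested genes 13 were called higher in the gland and 11 in the brain (7 in the brain without gland replicate 1), with a median log2 fold change of 0.47. Among these 60 genes the largest fold toward the gland was that of somatostatin receptor type 3-like (LOC106600448, chromosome 3, 35963061 to 35966777), a receptor for the peptide that inhibits growth hormone release. It had 617, 670, 603 and 454 CPM in the gland and 0.444, 0.304, 0.591 and 0.823 CPM in the brain, a log2 fold change of -10.12 ± 0.35 (SE) with an edgeR adjusted p of 7.9e-11. The thyrotropin-releasing hormone receptor-like gene LOC106605056 had 86.3, 69.5, 65 and 85.4 CPM in the gland against 1.43 to 2.85 CPM. The gonadotropin-releasing hormone II receptor-like gene LOC106588559 had 10.3 to 17.9 CPM against 0.502 to 2.22 CPM.

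Single genes for other receptors, a deiodinase and the clock were also called higher in the gland. The dopamine receptor gene drd2, through which dopamine inhibits prolactin and, in fish, gonadotropin release, had 24.9, 20.6, 17.5 and 26.4 CPM in the gland against 5.47, 3.22, 2.19 and 3.20 CPM in the brain (log2 fold change -2.67 ± 0.37, SE, edgeR adjusted p 2.3e-05). Estrogen receptor beta 2 (LOC100846972) had 29.6 to 40.8 CPM against 0.774 to 8.54 CPM, and it shares 88 exon bases with a gene on the other strand. Steroid enzymes and deiodinases had 4 of 16 tested genes called in the gland and 0 in the brain (1 without brain replicate 1 or 2), and the type II deiodinase-like gene (LOC106603085), which activates thyroid hormone, had 37.2, 20.8, 54.6 and 11.2 CPM in the gland and 2.20 to 5.97 CPM in the brain. Clock genes had 2 of 44 called in each direction, 4.55% against 10.7% of all tested genes in the brain and 4.91% in the gland. Among them was aryl hydrocarbon receptor nuclear translocator-like protein 1 (LOC106562106), the clock activator BMAL1. It was called higher in the gland, with 205 to 253 CPM against 16 to 36 CPM in the brain. That call was lost without brain replicate 1 or 3 (edgeR adjusted p 0.00148 and 0.00124). Without brain replicate 4, 1 clock gene was called in the brain and 4 in the gland, and without gland replicate 2, 1 was called in the brain. The medians of the steroid and clock lists, -0.12 and -0.32, became 0.34 and 0.14 with plain library totals.

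Receptors on the brain side included class B peptide receptors. The PACAP type I receptor-like gene LOC106560417 had 2.75, 1.65, 34.5 and 23.8 CPM in the brain and 0.0412 to 0.184 CPM in the gland, so brain replicates 3 and 4 were above the others, and without replicate 3 the log2 fold change of 7.10 was 6.33. Corticotropin-releasing factor receptor 2-like (LOC106599903) had 5.88, 14.1, 5.17 and 5.15 CPM against 0 to 0.101 CPM. The somatostatin receptor family was split, since sstr5 had 8.41 to 19.1 CPM in the gland and 0.373 to 1.89 CPM in the brain, while the type 5-like gene LOC106601468 had 1.01, 0.429, 0.857 and 7.71 CPM in the brain and 3 counts over all gland libraries. The call of the latter was lost without brain replicate 4 (edgeR adjusted p 0.00119) and without any 1 of the gland replicates.

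Neuropeptide precursors, among them ligands of some of these receptors, had more genes called in the brain than in the gland. Their summed levels were closer, with 1006, 906, 1097 and 4747 CPM in brain replicates 1 to 4 and 743 to 920 CPM in the gland. Brain replicate 2 thus lay within the gland range. Of 60 tested neuropeptide precursor genes 30 were called higher in the brain and 3 in the gland, with a median log2 fold change of 5.78, or 5.59 with the genes at 0 counts set to their bounds. Thyrotropin-releasing hormone (trh) had 16.2, 9.35, 6.38 and 13.2 CPM in the brain and 3 counts over the 4 gland libraries. The corticotropin-releasing peptide gene corticoliberin-1-like (LOC106579547) had 14.9, 12.6, 6.06 and 46.9 CPM against 0 to 0.289 CPM, with a log2 fold change of 7.22 that was 6.37 without brain replicate 4 and 7.84 without gland replicate 2. The PACAP precursor gene LOC106578701, of the glucagon family of neuropeptides, had 158, 89.7, 43.6 and 162 CPM against 0.184 to 1.01 CPM, and its copy paca had 234, 122, 81.7 and 234 CPM against 4.50 to 11.8 CPM. Proenkephalin (penk), the precursor of opioid enkephalins, had 44.2, 141, 52.4 and 54.7 CPM against 0.367 to 0.701 CPM, a log2 fold change of 7.15 ± 0.43 (SE) with an edgeR adjusted p of 5.1e-09. The substance P precursor protachykinin-like (LOC106588680) had 51.3, 87.7, 55.9 and 5.82 CPM against 0.0737 to 0.269 CPM. Among the genes given here, thyrotropin-releasing hormone and its receptor-like gene were thus called on opposite sides. The PACAP type I receptor-like and corticotropin-releasing factor receptor 2-like genes lay on the same side as their peptides. Other receptors of these peptides are not given here, nor is the peptide of the gonadotropin-releasing hormone receptor gene.

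The 3 neuropeptide precursors called higher in the gland were both neuromedin-U-like genes and grp. Neuromedin-U-like LOC106582253 (chromosome 21, 35553510 to 35556049) had 649, 552, 442 and 478 CPM in the gland and 0.591, 0.249, 0.62 and 0.518 CPM in the brain, a log2 fold change of -10.11 ± 0.49 (SE) with an edgeR adjusted p of 8.1e-10. The second copy, LOC106586482, had 156, 128, 154 and 171 CPM against 0.384, 0.526, 1.06 and 3.17 CPM, with a log2 fold change of -6.93 that was -7.88 without brain replicate 4. Neuromedin U is known in mammals as a peptide of gut and pituitary that affects feeding and muscle contraction. Gastrin-releasing peptide (grp), a bombesin-like peptide, had 68.8, 76.1, 57.5 and 60.4 CPM in the gland against 0.553 to 0.798 CPM in the brain.

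More epithelial genes were called in the gland than in the brain. Claudins and the junctional cadherin, which seal cells to each other, had 28 of 74 tested genes called higher in the gland and 9 in the brain, and keratins 7 and 3 of 25. The summed levels did not follow these counts, since claudins summed to 573 to 1624 CPM in the brain and 710 to 784 CPM in the gland, and keratins to 206 to 1208 and 566 to 630 CPM, with overlap between the tissues. Without brain replicates 3 and 4 the keratins called in the gland were 11. The gene cldn18 had 8.66 to 11.6 CPM in the gland and 2 counts over all brain libraries. Keratin 18-like LOC106585415, a filament protein of simple epithelia, had 57.5, 52.5, 56.1 and 49.6 CPM in the gland and 0 to 0.118 CPM in the brain, a log2 fold change of -9.99 ± 0.58 (SE, edgeR adjusted p 3.7e-09), which was -9.33 without brain replicate 2 and -10.63 without brain replicate 3. Claudin-6 (cld6) was on the brain side, with 222, 114, 88.6 and 20.1 CPM against 0.47 to 2.06 CPM.

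Several genes of other kinds were also called higher in the gland, some of them near 0 in the brain. Microfibril-associated glycoprotein 4-like (LOC106604415), a secreted fibrinogen-domain protein, had 30.7, 27, 19 and 24.2 CPM in the gland and 0 counts in every brain library, at least 325-fold higher against a floor of 3 counts per library. The calcium-binding protein gene s100z had 15.2 to 22.5 CPM against 1 count in all brain libraries. Fast troponin I-like (LOC106584519), a regulator of skeletal muscle contraction, had 13.2, 13, 7.63 and 9.52 CPM in the gland and 0 to 0.0609 CPM in the brain, while the whole list of skeletal muscle proteins had 9 of 51 called in each direction and summed to 186 to 207 CPM in the gland and 222 to 422 CPM in the brain. Dickkopf-related protein 3-like (LOC106561478) had 244 to 383 CPM against 1.83 to 32.5 CPM, and its log2 fold change of -4.33 was -4.98 without brain replicate 3. Follistatin-related protein 5-like (LOC106611554) had 147 to 221 CPM against 12.3 to 34.6 CPM.

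Families with the same product name were split between the tissues in 178 of 7906 cases, counting names shared by at least 2 tested genes with at least 1 gene called in each direction. By comparison 699 names had at least 2 genes called higher in the brain only, and 181 had at least 2 called higher in the gland only. The counting used reads that map to 1 place, so reads shared by near-identical copies are not included and the split between very similar copies is uncertain. Among the split names, 24 had just 2 tested genes.

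The pairs with the largest gaps included genes of the synapse, of the matrix and of epithelia. Neuronal pentraxin-2-like, which clusters glutamate receptors, had LOC106600900 on chromosome 3 with 7.75, 145, 1.80 and 15.1 CPM in the brain against 0.0369 to 0.331 CPM, and LOC106588441 on chromosome 27 with 5.57 to 9.59 CPM in the gland and 3 counts over all brain libraries. Without brain replicate 2 the log2 fold change of the first gene was 5.37 in place of 7.74. Sodium-coupled neutral amino acid transporter 3-like, a carrier of glutamine, had LOC106582752 with 29.2, 29.3, 52.9 and 34.8 CPM in the brain against 0.437 to 1.25 CPM, and LOC106572384 with 11.9, 11.5, 25.3 and 4.92 CPM in the gland against 0.0138 to 0.122 CPM. The log2 fold changes of that pair were 5.23 ± 0.32 and -7.65 ± 0.79 (SE), with edgeR adjusted p of 5.6e-09 and 1.1e-06. The secreted protein C1q tumor necrosis factor-related 4-like had LOC106561941 with 19 to 52.2 CPM in the brain against 0.168 to 0.22 CPM, and LOC106573304 with 7.53 to 14.8 CPM in the gland against 0.277 to 0.414 CPM.

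Keratin 18-like itself was such a pair. The copy LOC106566972 had 42.9, 30, 93 and 81.7 CPM in the brain and 10.9 to 13.2 CPM in the gland, opposite to LOC106585415 above, and without brain replicates 3 and 4 its log2 fold change of 2.38 became 1.70, below the threshold. The matrix protein pair of unique cartilage matrix-associated protein-like had LOC106573148 with 6.42 to 18.8 CPM in the gland and LOC106576209 with 13.2, 5.05, 7.80 and 0.274 CPM in the brain, where brain replicate 4 lay within the gland range of 0.0737 to 0.538 CPM. That brain call was lost without brain replicate 1 or gland replicate 1, 2 or 4 (edgeR adjusted p 0.00137 to 0.00233). In the pair of butyrophilin 1A1-like genes, members of an immunoglobulin family, LOC106589475 had 0.857, 14.4, 5.58 and 1.04 CPM in the brain and LOC106602685 had 4.94 to 6.98 CPM in the gland. Their log2 fold changes of 6.77 and -6.14 were 5.62 and -5.52 without brain replicate 2, and the latter was -7.86 without brain replicate 4. That of LOC106573148 was -8.91 in place of -8.30 without brain replicate 2.

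For a pair of families the brain side rested on few libraries. Collagen alpha-1(XXI)-like LOC106611541 had 166 CPM in brain replicate 2 and 1.54 to 2.48 CPM in the other brain libraries, against 0.124 to 0.553 CPM in the gland, and its call was lost without brain replicate 2 (log2 fold change 2.51 in place of 6.90, edgeR adjusted p 0.00156) and without any 1 of the gland replicates (0.00354 to 0.00443). Its counterpart LOC106589801 had 10.9, 6.23, 15.5 and 2.02 CPM in the gland against 0.0886 to 0.266 CPM. Plakophilin-3-like LOC106587473, a desmosome protein, had 14.7 and 12.7 CPM in brain replicates 3 and 4 and 0.266 and 0.263 CPM in replicates 1 and 2, with 3 counts over all gland libraries, and was not called without any 1 of the gland replicates. Its counterpart LOC106584766 had 11.2 to 15 CPM in the gland and 0.0553 to 1.19 CPM in the brain, and its log2 fold change of -4.72 was -5.68 without brain replicate 4. The collagen gene LOC106611541 shares 195 exon bases with a gene on its own strand.

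Further split families were picked after their values had been seen. The sodium channel type 4 alpha B-like gene LOC106600868 had 261, 215, 115 and 53.3 CPM in the brain and 4.91 to 12 CPM in the gland, while LOC106579582 of the same name had 64, 69.7, 57.3 and 74 CPM in the gland and 0.484 to 3.40 CPM in the brain. Their log2 fold changes were 4.27 ± 0.47 and -5.23 ± 0.51 (SE), with edgeR adjusted p of 2.0e-06 and 6.2e-07. The Pax-7-like factor gene LOC106583049, whose mammalian counterpart marks melanotrope cells of the gland as well as the dorsal midbrain, had 92.8, 93.8, 55.8 and 138 CPM in the gland and 7.19, 1.05, 1.71 and 0.122 CPM in the brain. Its copy LOC106572214 had 25.9, 4.65, 1.71 and 0.335 CPM in the brain against 0 to 0.147 CPM in the gland, and without brain replicate 1 its log2 fold change was 5.25 in place of 7.10, while that of LOC106583049 was -6.61 in place of -5.26. The call of that copy was lost without gland replicate 1, 2 or 3 (edgeR adjusted p 0.00118 to 0.00126).

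**Figure D3:**
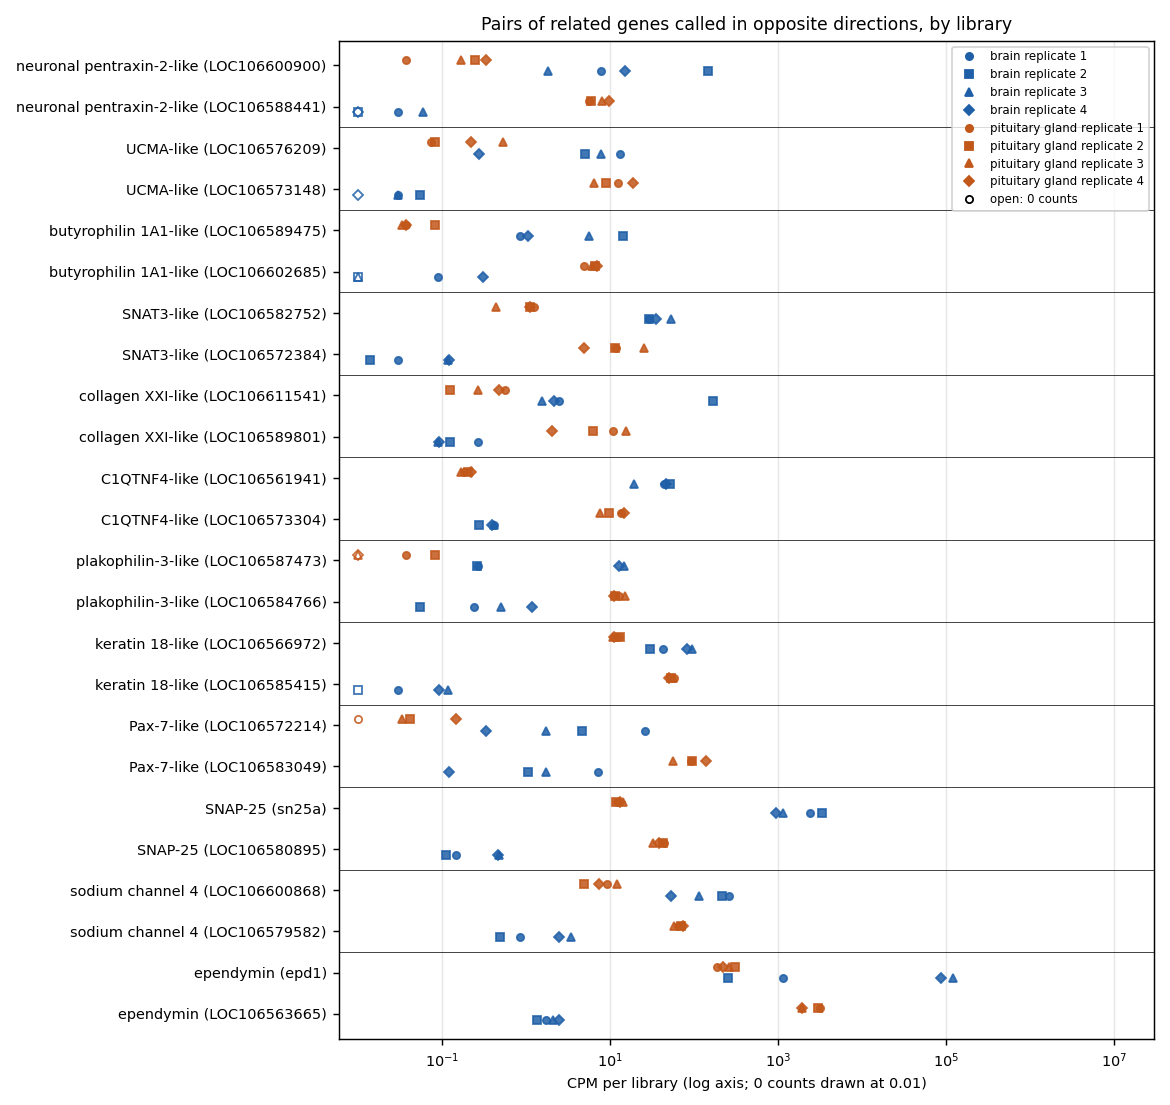
CPM per library on a log axis for 12 pairs of related genes, with the gene called higher in the brain above the gene called higher in the pituitary gland in each pair. The gland libraries lie close together for most genes, while brain libraries spread widely, as for collagen XXI-like LOC106611541 with 166 CPM in brain replicate 2 alone.

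Ependymins, secreted glycoproteins of the fish brain and meninges, had a wide spread among the brain libraries. The genes epd1 and epd2 were called higher in the brain, and the gene LOC106563665 higher in the gland, out of 5 tested. Ependymin-1 (epd1) had 1126, 255, 120491 and 87118 CPM in brain replicates 1 to 4 and 188, 302, 259 and 218 CPM in the gland, so that brain replicate 2 lay within the gland range. Ependymin-2 (epd2) had 258, 52.2, 38310 and 27853 CPM against 52.7 to 87.6 CPM. With brain replicates 3 and 4 left out the log2 fold changes fell to 1.59 and 1.25 and neither gene was called, nor were they with any 1 of the gland replicates left out (edgeR adjusted p 0.00167 to 0.00221). Without brain replicate 3 the log2 fold changes of 7.76 and 7.92 were 6.88 and 7.04. The ependymin-like gene LOC106563665 had 3131, 3015, 1932 and 1930 CPM in the gland and 1.74, 1.33, 2.07 and 2.44 CPM in the brain, a log2 fold change of -10.37 ± 0.43 (SE) with an edgeR adjusted p of 2.1e-10.

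The brain libraries differed in regional genes in ways that the labels do not give. For this description 5 further lists were drawn up after the values had been seen, and they carry no test. Cerebellar genes summed to 126, 1232, 46.4 and 148 CPM in brain replicates 1 to 4, so replicate 2 was highest. Among single genes GABA-A alpha-6-like (LOC106567506), a subunit of cerebellar granule cells in mammals, had 19.9, 298, 1.51 and 31.4 CPM. Its log2 fold change of 8.65 was 6.32 without replicate 2. A second gene of that name, LOC106604577, had 5.85, 23, 1.42 and 29.6 CPM, with a mean of 32 CPM in the ovary. It and ZIC 4-like LOC106611728 were highest in replicate 4, and cerebellin-1 LOC106573707 in replicate 1. The remaining tested members of this list were highest in replicate 2. Melanin-concentrating hormone genes, which mark hypothalamic neurons, summed to 5.88, 0.636, 503 and 19.4 CPM, highest in replicate 3. Engrailed and Pax-7 genes, factors of the midbrain, summed to 60, 149, 25.7 and 6.34 CPM in the brain and 56 to 139 CPM in the gland. Nearly all of the gland sum is the Pax-7-like gene LOC106583049, and the other 6 members summed to 6.21 to 148 CPM in the brain and 0.235 to 0.664 CPM in the gland. Isotocin and vasotocin genes, of neurons that project to the gland, summed to 11.7, 15.9, 6.41 and 3656 CPM, highest in replicate 4, against 3.38 to 6.18 CPM in the gland. Meningeal and matrix genes summed to 1498, 401, 160438 and 116464 CPM, highest in replicates 3 and 4, against 675 to 803 CPM in the gland. Most of this sum is epd1 and epd2, which the ependymin list also holds, and the other 16 members summed to 114, 93.8, 1637 and 1493 CPM in the brain and 414 to 490 CPM in the gland.

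Single genes showed what this spread does to the calls. Isotocin-neurophysin IT 2 (LOC106584961) had 2.87, 0.526, 1.27 and 2172 CPM in the brain and 1.18 to 2.49 CPM in the gland and was not called (log2 fold change 8.43 ± 2.16, SE, edgeR adjusted p 0.00371), and without brain replicate 4 its value was -0.03. Vasotocin-neurophysin VT 1 (LOC106563362) had 6, 15, 4.46 and 1032 CPM against 1.51 to 2.92 CPM, and pro-MCH 2 (LOC106563365) had 3.84, 0.36, 329 and 13.2 CPM against 0.11 to 2.80 CPM, and neither was called (edgeR adjusted p 0.00109 and 0.00276). Vasotocin was called without brain replicate 1, 2 or 3 (adjusted p 0.00036, 0.00038 and 0.00024) and with plain library totals (0.00071), isotocin without brain replicate 2 (0.0007) and pro-MCH 2 without brain replicate 2 (0.00029). Without brain replicate 4 the log2 fold change of vasotocin was 2.05 in place of 7.0, and without brain replicate 3 that of pro-MCH 2 was 2.81 in place of 6.78. Glutamate receptor U1-like (LOC106582807), known in fish as a kainate-binding protein, had 7.75, 1649, 21.3 and 2.74 CPM against 0.992 to 1.98 CPM and missed the call narrowly at an adjusted p of 0.001. Without brain replicate 2 its log2 fold change of 8.17 became 2.86. Neurogenic differentiation factor 2-like (LOC106579148) had 6.62, 174, 3.69 and 7.22 CPM and ZIC 5-like (LOC106586041) 11, 222, 26.1 and 22.4 CPM, both highest in brain replicate 2, and without it their log2 fold changes of 8.71 and 8.17 were 5.67 and 6.33. Isotocin, vasotocin and pro-MCH 2 therefore reached high levels in single brain libraries, and their calls depended on which library was left out. The releasing peptide genes trh and LOC106579547 described above were instead called with every brain library above every gland library.

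**Figure D4:**
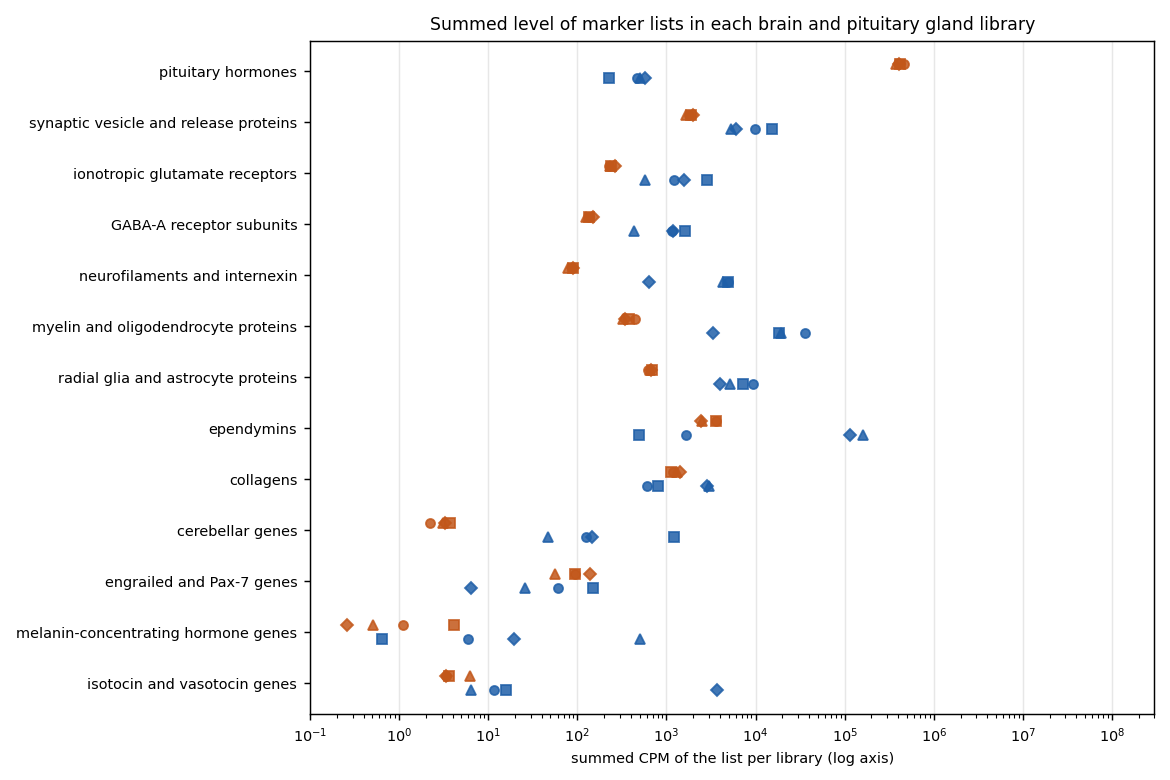
Summed CPM of 13 gene lists in each library on a log axis, with the lower 4 lists chosen after the values had been seen. Brain replicates 3 and 4 are highest for ependymins, at 159449 and 115366 CPM, replicate 2 for cerebellar genes at 1232 CPM, and replicate 4 for isotocin and vasotocin genes at 3656 CPM.

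Over all genes called higher in the brain, 1467 had their highest brain level in replicate 1, 1168 in replicate 2, 629 in replicate 3 and 717 in replicate 4. The median ratio of the highest to the lowest brain library was 3.57, against 1.51 among gland libraries for genes called higher in the gland. A ratio of at least 10, or a library at 0, was found for 588 of the former and 11 of the latter. Without brain replicates 3 and 4, 4638 genes were called higher in the brain and 2455 in the gland, of which 3566 and 1617 were among the calls over all libraries. Differences in dissection, region or animal cannot be told apart in these libraries.

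Markers of tissues that a dissection could carry along were called to different degrees. Globins and red cell proteins summed to 59.8, 120, 789 and 309 CPM in the gland and 73.1 to 498 CPM in the brain, with 1 of 22 tested genes called (0 without brain replicate 3 or any 1 gland replicate), and liver plasma proteins summed to 101 to 155 and 78.4 to 341 CPM, with 1 of 32 called. Phototransduction genes, shared by retina and pineal, had 4 called in the brain (1 to 2 without brain replicate 3 or any 1 gland replicate) and 7 in the gland of 51, which is 7.84% and 13.7% of the list against 10.7% and 4.91% of all tested genes, with sums of 92 to 187 and 140 to 155 CPM. Collagens summed to 608, 802, 3044 and 2828 CPM in the brain, again highest in replicates 3 and 4, and to 1128 to 1407 CPM in the gland. Of 130 tested collagen genes 20 were called in the brain and 14 in the gland, 15.4% and 10.8%, or 12 in the brain without gland replicate 1, 2 or 4, and 27 in the gland without brain replicates 3 and 4. The part of these tissues in the differences was not tested.

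Signalling families and the remaining lists were called as follows, where 10.7% of all tested genes were higher in the brain and 4.91% in the gland. Several lists were near or below these shares. Among them were the insulin-like growth factor list (12.5% in the brain) and, for the brain, the Notch list (7.55%). The Notch list also had 7.55% called in the gland, which is above the share of all tested genes there. Cyclins (5.88% in the gland) and antigen presentation (3.12% in the gland) were further ones. Of 204 tested neuronal adhesion genes, such as neurexins and protocadherins, 58 were called higher in the brain and 2 in the gland (0 without brain replicate 3 or with plain library totals, and 1 without gland replicate 1, 2 or 4). TGF-beta and BMP ligands with their binding proteins had 15 of 81 called in the brain and 9 in the gland. Wnt ligands, frizzleds and antagonists had 11 and 5 of 60, or 9 in the gland without brain replicates 3 and 4. The Notch list had 4 of 53 in each direction, with 7 in the gland without brain replicate 2 or 4. Genes of acetylcholine, GABA and glutamate metabolism had 17 of 41 called in the brain and 5 in the gland. Monoamine synthesis and transport had 4 of 18 called in the brain and 0 in the gland, with 7 in the brain without brain replicate 2 and 2 without any 1 gland replicate. The insulin-like growth factor system had 4 of 32 in the brain and 0 in the gland, with 8 in the brain without brain replicate 2. Cyclins and mitotic kinases, which mark dividing cells, had a negative log2 fold change in 33 of 34 tested genes with 2 called in the gland (1 without brain replicate 2 or gland replicate 3 and 4 without brain replicate 3). Microglia and macrophage proteins had 2 of 10 called in the brain, and 0 without gland replicate 2 or 4. Their sums were 241, 194, 5782 and 4205 CPM in brain replicates 1 to 4 and 708 to 974 CPM in the gland. Brain replicates 1 and 2 were thus below every gland library. Without brain replicates 3 and 4, 2 members of this list were called in each direction. Antigen presentation had 1 of 32 called in the gland (3 without brain replicate 3) and 0 in the brain (1 without brain replicate 4). Motile cilium proteins had 5 of 57 called in the gland (2 with plain library totals) and 2 in the brain (1 without gland replicate 1, 2 or 4). Egg coat genes had 0 of 22 called, and 1 without brain replicate 1 or gland replicate 3.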

How the data were processed

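Messenger RNA of midbrain, pituitary gland, ovary and liver was sequenced as 4 libraries per tissue from stranded libraries. The authors mapped reads to ICSASG_v2 with TopHat2 and counted reads with 1 mapped position on exons with HTSeq. The deposited table gives raw counts for 81574 genes. A second deposited table, of log2 values centered by gene, was not used. Gene names, positions and exon overlaps came from the deposited annotation of ICSASG_v2. No sequences are given because no genome was used here.

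In all 16 libraries together, 37043 genes passing filterByExpr were fitted with a mean per tissue in edgeR 4.0.16 (R 4.3.3, limma 3.58.1), with TMM scaling and the quasi-likelihood test. Adjusted p-values are Benjamini-Hochberg over all tested genes, at the thresholds of the study's methods. The test within edgeR is a choice made here. SE was obtained from the fold change and its F statistic. The floor was 3 counts, and such limits cover counting error only. The fit was also run on simulated data with the same spread per gene in all tissues. Those data did not hold the wider spread of the brain libraries, so the run does not check the p-values for it. Tables and plots used Python 3.11.15, pandas 2.3.3, numpy 2.4.6 and matplotlib 3.10.9.

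The members and gene lists were chosen with earlier results of these data known. Lists are by product name and carry no test of their own. The genes named by rule were the 10 called genes with the largest fold and the 10 with the highest CPM per direction, 10 transcription factors per direction, for each list the 2 largest calls per direction and the member of highest CPM, and the 8 split families with the largest gaps at a CPM of at least 5. Genes near 0 in the lower tissue are given by their levels. Other genes were chosen for their role after their values were seen: the hormone subunits gthb2 and LOC106610688, 7b2, chga, LOC106583415, spcs3, the receptors drd2, sstr5, LOC106588559, LOC100846972, LOC106599903 and LOC106601468, the peptides trh, grp, penk, paca, LOC106578701, LOC106588680, LOC106579547, LOC106563362 and LOC106563365, the channels and receptors LOC106611560, LOC106563238, glra1, LOC106565914, LOC106579993, LOC106600868 and LOC106600760, the GABA-A genes LOC106574421, LOC106575272 and LOC106575273, the neuronal and glial genes LOC106566022, LOC106566112, LOC106579437, gad1, nefl, LOC106603349, LOC106573351 and s100b, and the Pax-7 genes.

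Alternatives were DESeq2 1.42.0 (Wald test, or its size factors in edgeR), plain library totals, scaling without hormone genes, no filter or a CPM filter of 1, a fit on 8 libraries, the replicate number as a block, a fold threshold of 1, brain replicate 2 thinned, unchanged product names, and leaving out each library. The fit without brain replicates 3 and 4 was added after seeing the data. Not every gene that the rules name is given with values, and 1 gene is withheld and not reported here.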

Additional observations from a re-analysis of the deposited data

Results flagged for a closer look

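A library was listed here when its gap to the nearest other library of its tissue, divided by the range of the 4 libraries, exceeded Dixon's critical value. Of 321 sets of 4 values examined, 39 were listed, 12.1%, and 28 of them were in the brain. The critical value is set for about 5% in normally distributed values, which CPM need not be. Some sets were also chosen after their values had been seen, so 12.1% cannot be read against that rate. Many of the sets share genes or lists, so they are not independent.

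Brain replicate 2 was highest for GABA-A alpha-6-like LOC106567506 (298 CPM), glutamate receptor U1-like LOC106582807 (1649 CPM), penk (141 CPM), CRF receptor 2-like LOC106599903 (14.1 CPM), neurogenic differentiation factor 2-like LOC106579148 (174 CPM), barh1 (60.1 CPM), en2 (59.6 CPM), ZIC 5-like LOC106586041 (222 CPM), neuronal pentraxin-2-like LOC106600900 (145 CPM) and collagen XXI-like LOC106611541 (166 CPM). It was highest for the sums of zic, POU3, SOX and proneural factors (2291 CPM) and of cerebellar genes (1232 CPM), and lowest for proopiomelanocortin B (40.1 CPM) and somatolactin beta LOC100196589 (0.982 CPM).

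Brain replicate 4 was highest for isotocin IT 2 (2172 CPM), vasotocin VT 1 (1032 CPM), somatostatin receptor 5-like LOC106601468 (7.71 CPM), the sum of isotocin and vasotocin genes (3656 CPM) and the sum of neuropeptide precursors (4747 CPM). It was lowest for nfm (106 CPM), nefl (6.76 CPM) and the neurofilament sum (630 CPM). Brain replicate 3 was highest for pro-MCH 2 (329 CPM) and the melanin-concentrating hormone sum (503 CPM). Brain replicate 1 was highest for pro-thyrotropin-releasing hormone-A-like LOC106571889 (62.4 CPM), pitx1 (1.21 CPM), Pax-7-like LOC106572214 (25.9 CPM) and the sum of genes of acetylcholine, GABA and glutamate metabolism (1973 CPM).

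In the pituitary gland replicate 3 was lowest for pro-opiomelanocortin A1 (94289 CPM), chga (291 CPM) and the clock activator LOC106562106 (205 CPM), and highest for glial fibrillary acidic protein-like LOC106601521 (1.95 CPM), isotocin IT 2 (2.49 CPM) and the isotocin and vasotocin sum (6.18 CPM). Replicate 4 was highest for the sums of glycine receptor subunits (40.2 CPM) and sodium channels (446 CPM). Replicate 2 was highest for pro-MCH 2 (2.80 CPM) and the sum of motile cilium proteins (546 CPM), and replicate 1 was lowest for the potassium channel C 1-like gene LOC106600760 (0.516 CPM).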

How the results depend on the processing

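No gene called over all libraries changed its sign in any alternative, with 0 such calls in each. The fit on the 8 brain and pituitary gland libraries alone called 3864 genes (2532 higher in the brain) with 88 split families, and a fold threshold of 1 called 8873 (3364 in the gland) with 341 split families. With plain library totals 9 lists had more members called in the gland. The DESeq2 Wald test called 6982 genes and 253 split families, and plain totals called 6836. Without brain replicates 3 and 4 there were 7093 calls and 239 split families, and apolipoprotein Eb-like (LOC106605689), at 1.59 and not called over all libraries, had a log2 fold change of -2.49. Leaving out 1 library gave 4765 to 6071 calls, 3134 to 4296 in the brain and 1631 to 1905 in the gland, 23 to 28 and 14 to 18 lists, and 136 to 193 split families. Unchanged product names gave 160 families. Correlations of deviations from the tissue means between libraries of the same number were 0.074, 0.125, 0.117 and 0.0775, and each library correlated best with its own number. The labels do not state the fish, so the main fit did not pair the samples. If the numbers stand for fish, its p-values ignore that pairing. With the replicate number as a block there were 5295 calls (3511 and 1784) and 158 split families over 16 libraries, and 1395 calls (889 and 506) with 11 split families over the 8 libraries. In this last fit 7 ionotropic glutamate receptors were called higher in the brain in place of 32, and 12 release proteins in place of 54. For neurofilaments the number was 3 in place of 13, and for myelin genes 2 in place of 16. Hormone genes called higher in the gland were 12 in place of 15. The causes were not tested. The fits on 8 libraries have fewer samples for the spread, and they also set it without the ovary and liver libraries. Genes near the floor of 3 counts in the lower tissue have fold changes set by a few counts. No motif, sequence or list test was run.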
